A study of Mus musculus with 12 samples.

Results

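Mela, Arsb, Arap2 and Chst11 are 4 genes whose RNA was higher in mouse CD8 T cells from Ezh2-knockout mice than in wild-type cells, both before and after activation. The genes were chosen by the knockout minus wild-type differences measured in these arrays, and every probe set annotated to 1 of the 4 symbols was taken. This gave 10 of the 45037 non-control probe sets, with 3 for Mela, 2 for Arsb, 3 for Arap2 and 2 for Chst11. The 4 genes stand among 20962 genes on the array. A further probe set, 1456606, is annotated to both Chst11 and Phactr1 and was left out. Its log2 values ran from 0.39 to 0.83 over the 12 arrays.

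Cells came from 6 male C57BL/6 mice aged 4 weeks. Mice 1, 2 and 3 were wild type for Ezh2. Mice 4, 5 and 6 were knockout: both of their Ezh2 alleles were floxed (Ezh2 fl/fl) and Cre recombinase was driven by the CD4 promoter, which is active in developing T cells before they become CD8 cells. The labels do not say whether the wild-type mice carried Cre. Spleens and lymph nodes were the source of the CD8 cells, which anti-CD8 magnetic beads enriched to a stated purity above 93%. Cells taken directly are called naive, and cells kept for 3 days on plates with anti-CD3 and a second antibody are called activated. The sources differ on the second antibody, which is anti-CD28 in the series text and anti-CD38 in the sample characteristics. Each mouse gave 1 naive and 1 activated sample, so there were 4 groups of 3 arrays, and the naive and activated arrays of a mouse share that animal.

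Ezh2 is the catalytic subunit of Polycomb repressive complex 2, which methylates histone H3 and keeps genes silent, in mouse cells often at promoters rich in CG pairs. Chst11 and Arsb act on the same sugar chain. Chst11 is a Golgi enzyme that adds a sulfate to position 4 of the N-acetylgalactosamine units of chondroitin, and Arsb is a lysosomal sulfatase that removes this sulfate when chondroitin and dermatan sulfate are broken down. Arap2, studied mainly as the human protein, switches off the small GTPase Arf6 when it binds a membrane phosphoinositide, and it binds active RhoA. Mela, a melanoma antigen gene, is related to the envelope genes of endogenous murine leukaemia viruses, a class of inherited retroviral copies that host chromatin usually keeps silent.

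The start regions of the genes are shown because CG-rich promoters are the usual sites of Polycomb repression in mouse cells. Promoter windows of 3 of the 4 genes matched by symbol in the RefSeq table of build GRCm38.p6. Arap2 lies on chromosome 5 from 62602445 to 62766192, Chst11 on chromosome 10 from 82984440 to 83195904 and Arsb on chromosome 13 from 93771679 to 93943016. Each window runs from 250 bases before to 50 bases after an annotated start and is printed 5′ to 3′ on the strand of the gene. Capitals mark CG pairs. The Arap2 window is chr5:62766128-62766427 on the minus strand, the Chst11 window is chr10:82985247-82985546 on the plus strand and the Arsb window is chr13:93771429-93771728 on the plus strand. Unlike the other windows, that of Chst11 lies wholly inside the gene span given above, so its start is not the outermost 1.
Arap2: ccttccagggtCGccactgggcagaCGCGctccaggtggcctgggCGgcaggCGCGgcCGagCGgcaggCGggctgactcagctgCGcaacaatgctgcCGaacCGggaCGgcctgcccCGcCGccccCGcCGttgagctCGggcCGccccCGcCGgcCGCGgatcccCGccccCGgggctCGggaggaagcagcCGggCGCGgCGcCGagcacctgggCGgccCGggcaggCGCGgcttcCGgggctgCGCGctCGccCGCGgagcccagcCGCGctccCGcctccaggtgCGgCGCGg
Chst11: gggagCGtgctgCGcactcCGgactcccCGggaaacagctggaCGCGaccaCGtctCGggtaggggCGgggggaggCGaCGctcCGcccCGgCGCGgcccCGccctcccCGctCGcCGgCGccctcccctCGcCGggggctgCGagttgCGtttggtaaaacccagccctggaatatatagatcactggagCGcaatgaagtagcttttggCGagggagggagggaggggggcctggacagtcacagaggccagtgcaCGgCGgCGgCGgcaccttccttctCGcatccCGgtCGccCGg
Arsb: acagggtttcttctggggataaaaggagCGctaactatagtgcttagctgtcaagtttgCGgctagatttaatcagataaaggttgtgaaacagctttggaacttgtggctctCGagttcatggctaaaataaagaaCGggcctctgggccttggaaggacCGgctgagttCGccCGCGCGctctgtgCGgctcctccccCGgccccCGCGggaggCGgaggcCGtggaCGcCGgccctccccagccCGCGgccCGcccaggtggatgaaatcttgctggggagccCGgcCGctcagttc
The Arap2 window held 47 CG pairs, the Chst11 window 34 and the Arsb window 22, against a median of 7 over 32851 windows. At least as many CG pairs were found in 1.44% of all windows for Arap2, in 7.73% for Chst11 and in 23.1% for Arsb. In the 250 bases before the start alone these shares were 2.58%, 9.59% and 21.7%. The motif AGGTGT, searched on both strands, was in none of these 3 windows and in 13.7% of all windows. No binding or histone data were used here, so the counts describe sequence only.

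**Figure D1:**
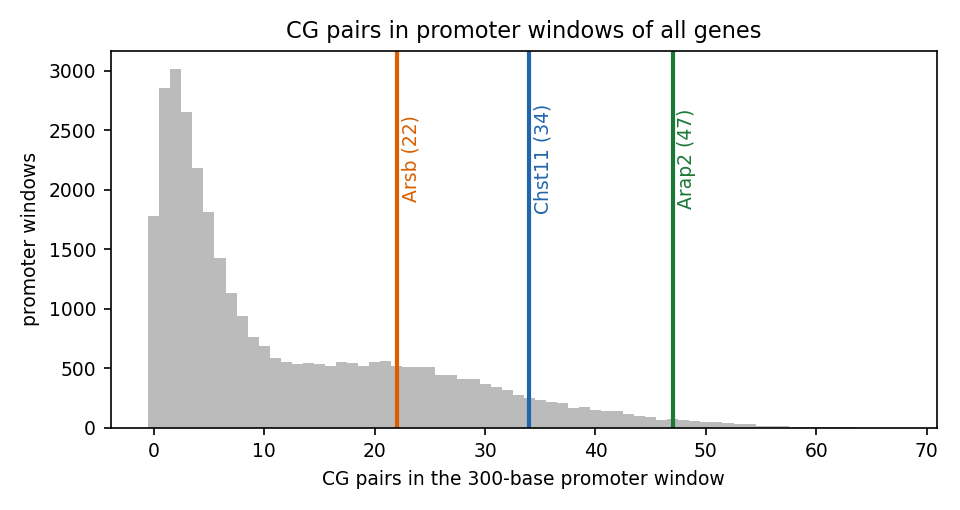
The histogram counts 300-base promoter windows (y axis) by their number of CG pairs (x axis), and the vertical lines mark 3 genes. Arsb (22), Chst11 (34) and Arap2 (47) all lie above the median window, which holds 7 pairs.

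On the log2 scale of the deposited values the array medians ran from 0.905 to 0.976 and 80.0% of probe sets had a mean under 2, so a fold taken from a gene that is dim in 1 group is compressed. Changes are log2 differences between group means ± SE from 1 limma fit of all 12 arrays, from n = 3 arrays in each group, with adjustment of p-values over all 45037 probe sets. Ezh2 itself, by probe set 1416544, was 5.56, 5.26 and 5.35 in activated wild-type cells and 2.72, 3.59 and 3.78 in activated knockout cells (difference −2.02 ± 0.20, adjusted p = 6.68e-05). In naive cells it was low in both genotypes, between 1.95 and 2.42 (−0.20 ± 0.20, adjusted p = 0.858). Upon activation it rose in the knockout as well, by 1.27 ± 0.20 (adjusted p = 1.44e-04). No label places this probe set inside or outside the deleted exons. The CD8 T-cell marker Cd8a was bright in every group. It averaged 7.43 ± 0.06 (SD, n = 3) in naive wild-type, 7.65 ± 0.16 in naive knockout, 7.25 ± 0.05 in activated wild-type and 6.80 ± 0.09 in activated knockout cells. In activated cells it was lower in the knockout (−0.45 ± 0.09, adjusted p = 0.0256). Markers of other cell types differed between the naive groups, and those values stand beside the results below.

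Mela changed most between the genotypes. In wild-type cells its probe set 1433438 was near the floor of the scale on all 6 arrays. It read 1.13, 1.22 and 1.14 in naive cells of mice 1, 2 and 3 and 1.18, 1.11 and 1.45 in their activated cells. In knockout cells it read 6.62, 5.76 and 5.62 in naive cells of mice 4, 5 and 6 and 5.59, 5.34 and 5.34 in their activated cells. Every knockout array was more than 3 log2 units above every wild-type array. The knockout minus wild-type difference was 4.84 ± 0.19 in naive cells, or 28.6-fold, and 4.17 ± 0.19 in activated cells, or 18.1-fold. This difference chose the gene, so no test is given for it.

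The other Mela probe sets had the same shape. Probe set 1456182 lay between 0.72 and 1.17 over the 6 wild-type arrays, between 5.18 and 5.87 in naive and between 4.31 and 4.81 in activated knockout cells. Its differences were 4.50 ± 0.17 and 3.46 ± 0.17. Among all 45037 probe sets ordered by the knockout minus wild-type difference, 1433438 and 1456182 took ranks 1 and 2 in naive and again in activated cells. Probe set 1456456 was dimmer, from 0.99 to 1.60 in wild-type and from 2.81 to 3.51 in knockout cells, with differences of 1.99 ± 0.15 and 1.60 ± 0.15. For all 3 the groups did not overlap in either state.

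All 3 Mela probe sets are annotated in the authors' deposited table as able to hybridize to other transcripts, 4 in all. These annotations name transcripts that 3 other probe sets also name, and these were looked up after the Mela values had been seen. Gm3579, by probe set 1431213, averaged 7.79 in naive wild-type and 7.23 in naive knockout cells (−0.56 ± 0.16, adjusted p = 0.155), and in activated cells it was lower in the knockout (−0.97 ± 0.16, adjusted p = 0.00629). Its second probe set, 1431214, differed by 0.38 ± 0.14 (adjusted p = 0.377) in naive and by 0.06 ± 0.14 (adjusted p = 0.982) in activated cells. The unnamed probe set 1455892, bright in every group with means from 7.38 to 7.91, fell by 0.49 ± 0.10 (adjusted p = 0.0302) in naive knockout cells. None of these 3 probe sets was higher in the knockout by the test in either state. With such cross-hybridization possible, which retroviral copy the Mela probe sets measured cannot be told apart. Arap2 1436895, Arsb 1429190 and Chst11 1450509 also carry a cross-hybridization note, and the transcripts it names were not looked up for them.

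Arsb was dim in wild-type cells and highest in naive knockout cells. Its probe set 1429189 read 1.37, 1.05 and 1.33 in naive and 1.09, 0.85 and 0.88 in activated wild-type cells. It read 3.25, 3.43 and 3.47 in naive knockout cells and 1.52, 1.99 and 2.14 in activated knockout cells. The lowest knockout array thus lay above the highest wild-type array in each state, and activated knockout cells still lay above naive wild-type cells. The difference was 2.13 ± 0.14, or 4.38-fold, in naive cells and 0.94 ± 0.14, or 1.93-fold, in activated cells. The second probe set, 1429190, ran from 0.91 to 1.46 over the wild-type arrays, from 2.12 to 2.59 in naive and from 1.28 to 1.73 in activated knockout cells, with differences of 1.13 ± 0.14 and 0.56 ± 0.14.

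By its brightest probe set, which carries a cross-hybridization note, Arap2 was the gene of the set that wild-type cells already expressed. Its probe set 1436895 read 5.56, 5.25 and 5.05 in naive and 3.73, 3.48 and 3.73 in activated wild-type cells. In the knockout it read 6.50, 6.36 and 6.38 in naive and 4.26, 4.24 and 4.37 in activated cells. The order was naive knockout, naive wild type, activated knockout and activated wild type, and no neighbouring groups overlapped. The difference was 1.13 ± 0.12, or 2.18-fold, in naive cells and 0.64 ± 0.12, or 1.56-fold, in activated cells. The dimmer probe set 1452291 differed by 0.60 ± 0.14 and 0.61 ± 0.14, with values from 1.40 to 1.90 over the wild-type and from 1.93 to 2.53 over the knockout arrays. Probe set 1456337 differed by 0.53 ± 0.12 and 0.27 ± 0.12. Its naive values were 1.54 to 1.64 against 1.76 to 2.34, and its activated values 1.11 to 1.29 against 1.36 to 1.58. Probe sets 1452291 and 1456337 carry no cross-hybridization note.

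Chst11 was the one whose brightest probe set differed more in activated than in naive cells. Probe set 1428902 read 0.96, 1.33 and 1.01 in naive and 1.48, 1.31 and 1.41 in activated wild-type cells. It read 1.56, 1.59 and 1.87 in naive and 2.92, 2.68 and 2.94 in activated knockout cells. Activated knockout cells stood above all other groups, naive knockout cells came next, and the wild-type groups overlapped each other. The difference was 0.57 ± 0.12, or 1.48-fold, in naive cells and 1.45 ± 0.12, or 2.73-fold, in activated cells. The second probe set, 1450509, was near the floor throughout, from 0.97 to 1.21 in wild-type and from 1.21 to 1.41 in knockout cells. Its differences of 0.27 ± 0.08 and 0.18 ± 0.08 were the smallest of the 10, and it was the probe set that came closest to failing the rule that both differences be above 0.

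**Figure D2:**
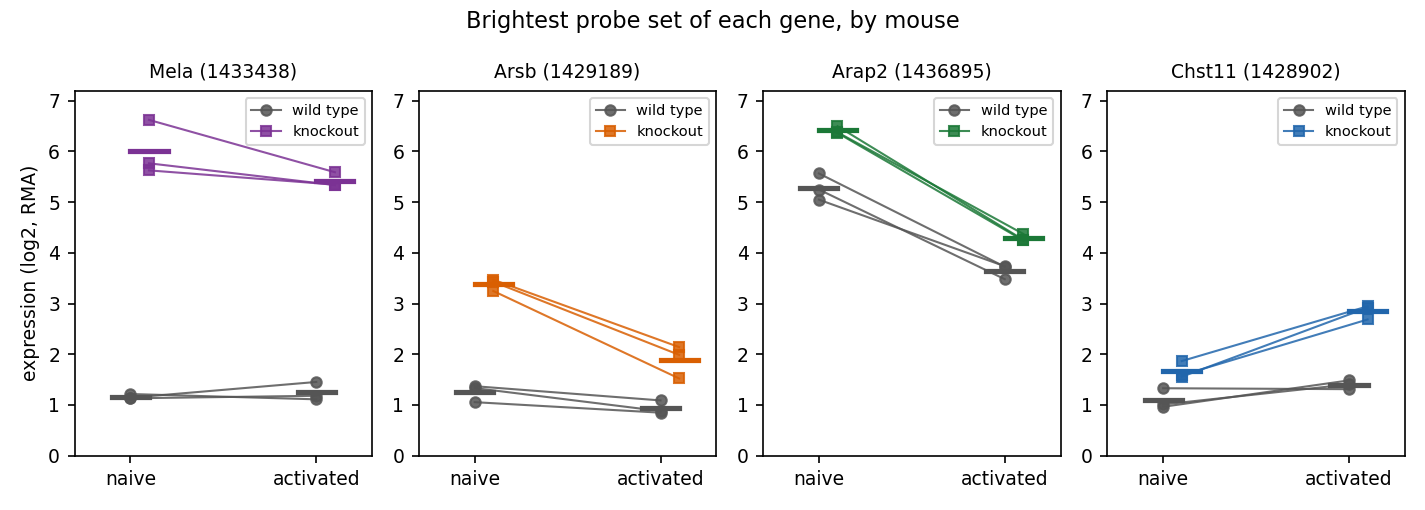
Each panel plots the log2 expression (y axis) of a gene's brightest probe set in naive and activated cells, with a line for each of the 3 wild-type (circles) and 3 knockout mice (squares) and a bar at each group mean. Mela is low in wild-type mice in both states, and Arap2 starts at 5.05 to 5.56 in naive wild-type cells and falls in all 6 mice.

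All 10 probe sets were higher in the knockout in both states without overlap of the groups. Over all probe sets 0.790% were, with 7.03% higher without overlap in naive and 7.06% in activated cells. Since the genes were chosen for this contrast, nothing further is read from the count. Without naive knockout mouse 4 the naive difference of Mela 1433438 was 4.53 and that of Arap2 1456337 was 0.71, which were the only differences to move by more than the spread between replicates when 1 array was left out.

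**Figure D3:**
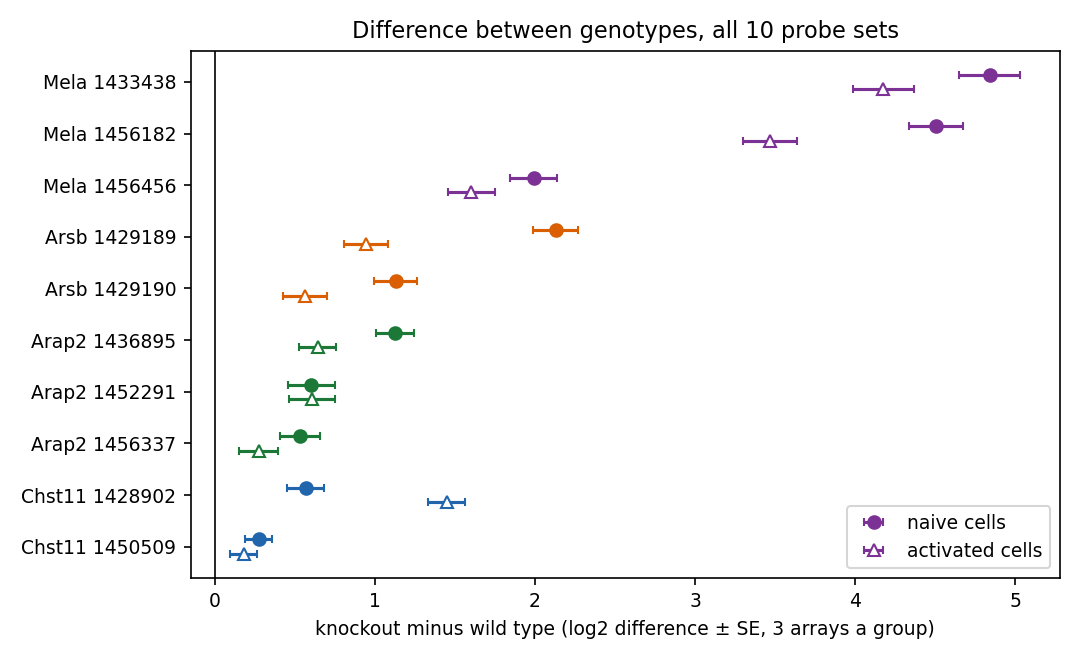
For all 10 probe sets the plot gives the knockout minus wild-type difference on the log2 scale (x axis, bars are the SE of the fit, 3 arrays a group), with filled circles for naive and open triangles for activated cells. The differences run from 0.18 for Chst11 1450509 in activated cells to 4.84 for Mela 1433438 in naive cells.

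Markers of other cell types also differed between the naive groups, most of them lower in the knockout and 1 of them, the NK-cell receptor gene Klra8, higher. Of 11 B-cell markers 5 were lower in naive knockout cells and 0 higher, by limma's adjusted p, with 8 lower and 0 higher at an unadjusted p under 0.05. Their summed linear level was 313 to 332 in naive wild-type and 107 to 148 in naive knockout cells. In activated cells it was 32.0 to 33.7 and 30.8 to 35.2, and 0 of 11 differed by the adjusted p, with 1 lower at an unadjusted p under 0.05. Of 10 myeloid markers 4 were lower in naive knockout cells and 0 higher, with summed levels of 28.7 to 33.2 against 21.0 to 21.6. Of 7 dendritic-cell markers 2 were lower, and of the CD4 T-cell, plasma-cell and stromal markers 1 in each list. Of 7 NK-cell markers 1 was higher and 1 lower in naive knockout cells. Klra8 averaged 0.54 in naive wild-type and 3.97 in naive knockout cells (3.43 ± 0.27, adjusted p = 3.43e-06), and Tyrobp, an adaptor of NK and myeloid cells, averaged 4.43 and 1.93 (−2.49 ± 0.15, adjusted p = 2.90e-07). In bulk samples, fewer cells of a type and less RNA per cell cannot be told apart. Their part in the differences of the 4 genes was not tested. In activated cells the brightest probe sets of the 4 genes differed by 0.64 to 4.17, differences by which the genes were chosen. There 5 of 9 CD8 T-cell markers were lower and 0 higher in the knockout, with summed levels of 484 to 562 against 657 to 667. In naive cells 1 of these 9, Thy1, was lower in the knockout (−0.43 ± 0.09, adjusted p = 0.0334) and 0 were higher. The 7 NK-cell markers summed to 40.2 to 48.8 in activated knockout against 33.6 to 36.7 in activated wild-type cells, sums that did not overlap. Of them 0 passed limma's adjusted p and 1 was higher at an unadjusted p under 0.05. Most of these sums came from Klrd1, with means of 4.98 and 4.60. The next highest mean was 1.31, for Klre1 in activated knockout cells.

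Array files of mice 3 and 6 are numbered apart from those of the other mice, and the labels call this no batch. Within mice 1, 2, 4 and 5 the naive difference was 5.02 for Mela 1433438, 2.13 for Arsb 1429189, 1.02 for Arap2 1436895 and 0.42 for Chst11 1428902. Between mice 3 and 6 it was 4.48, 2.14, 1.33 and 0.86, from 1 array a group. In activated cells the differences were 4.32, 0.79, 0.65 and 1.40 within the first 4 mice. They were 3.89, 1.26, 0.64 and 1.54 between mice 3 and 6.

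Activation separated the 4 genes. The activation comparisons were not used to choose them, although they share arrays with the differences that did. In wild-type cells 0 of the 10 probe sets rose and 2 fell, both of Arap2, at a limma adjusted p under 0.05. At an unadjusted p under 0.05, 1 rose and 4 fell. Over all probe sets 24.0% passed, 12.1% higher and 11.9% lower. In knockout cells 1 rose, 6 fell and 3 did not pass, against 24.6% of all probe sets, 12.7% higher and 11.9% lower. With arrays centred on their medians the share of passing probe sets that were higher was 62.5% in place of 50.5% in wild-type cells and 60.2% in place of 51.6% in knockout cells. The median change of the 10 was −0.06 in wild-type and −0.62 in knockout cells, beside −0.04 and −0.03 over all probe sets. Naive knockout cells, where the choice favoured high values, are the baseline of the knockout response. Since the choice of genes thus bears on these counts and medians, nothing further is read from them.

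Arap2 fell upon activation in both genotypes. Its probe set 1436895 fell by 1.64 ± 0.12 in wild-type cells, or 3.12-fold (adjusted p = 4.59e-08), with changes of −1.84, −1.77 and −1.31 in mice 1, 2 and 3. In the knockout it fell by 2.12 ± 0.12, or 4.35-fold (adjusted p = 2.85e-09), with changes of −2.240, −2.120 and −2.004 in mice 4, 5 and 6. All 6 mice fell, and both calls held in all 21 alternatives. Probe set 1456337 fell by 0.39 ± 0.12 in wild-type (adjusted p = 0.0301) and by 0.65 ± 0.12 in knockout cells (adjusted p = 8.48e-04), again in 6 of 6 mice. Its wild-type call held in 13 of 20 alternatives. The adjusted p was 0.0583, 0.0945 and 0.0635 without naive wild-type mouse 1, 2 or 3, and 0.108 and 0.0839 without activated wild-type mouse 1 or 3. It was 0.0535 with quantile normalization and 0.0702 with centred arrays. Probe set 1452291 changed by −0.20 ± 0.14 in both genotypes (adjusted p = 0.367 and 0.388), so the probe sets of Arap2 do not move alike.

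Arsb fell in knockout cells. Probe set 1429189 fell by 1.50 ± 0.14, or 2.83-fold (adjusted p = 7.92e-07), with changes of −1.73, −1.44 and −1.33 in mice 4, 5 and 6. Probe set 1429190 fell by 0.90 ± 0.14 (adjusted p = 1.13e-04), and all 3 mice fell. In wild-type cells the changes were −0.31 ± 0.14 (adjusted p = 0.128) and −0.34 ± 0.14 (adjusted p = 0.0939), negative in 3 of 3 mice for both. With the mouse as a fixed replicate block both wild-type changes passed (adjusted p = 0.0400 and 0.0140). They also passed when only the 6 wild-type arrays were fitted (0.0482 and 0.0220). Without activated knockout mouse 4 the first passed (0.0430), and without naive knockout mouse 4 the second (0.0440).

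Mela did not change by the test upon activation in wild-type cells, at values near the floor. There the changes of its 3 probe sets were 0.09 ± 0.19, 0.22 ± 0.17 and 0.07 ± 0.15 (adjusted p = 0.811, 0.403 and 0.784). The second of these, 1456182, changed by 0.09, 0.18 and 0.40 in mice 1, 2 and 3. In knockout cells 2 of 3 fell. Probe set 1456182 fell by 0.82 ± 0.17 (adjusted p = 0.00176), with changes of −1.06, −0.88 and −0.51 in mice 4, 5 and 6, and this held in all 20 alternatives. Probe set 1433438 fell by 0.58 ± 0.19 (adjusted p = 0.0367), with −1.03, −0.43 and −0.28. That call rests on single arrays. Without naive knockout mouse 4, the highest array, the change was −0.27 (adjusted p = 0.123). Without activated knockout mouse 5 or 6 the adjusted p was 0.108 or 0.0917, with centred arrays 0.0579, and with only the 6 knockout arrays 0.109. Probe set 1456456 changed by −0.32 ± 0.15 (adjusted p = 0.148), and it passed with quantile normalization (−0.56, adjusted p = 0.0167).

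Chst11 rose upon activation in knockout cells. Probe set 1428902 rose by 1.18 ± 0.12, or 2.27-fold (adjusted p = 1.29e-06), with changes of 1.36, 1.10 and 1.08 in mice 4, 5 and 6, and this held in all 21 alternatives. In wild-type cells it changed by 0.30 ± 0.12 (adjusted p = 0.0762), with 0.52, −0.02 and 0.40 in mice 1, 2 and 3. That change passed without naive wild-type mouse 2 (0.41, adjusted p = 0.0182), with quantile normalization (0.0434) and with centred arrays (0.0364). The dim probe set 1450509 changed by 0.11 ± 0.08 and 0.02 ± 0.08 (adjusted p = 0.388 and 0.916).

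**Figure D4:**
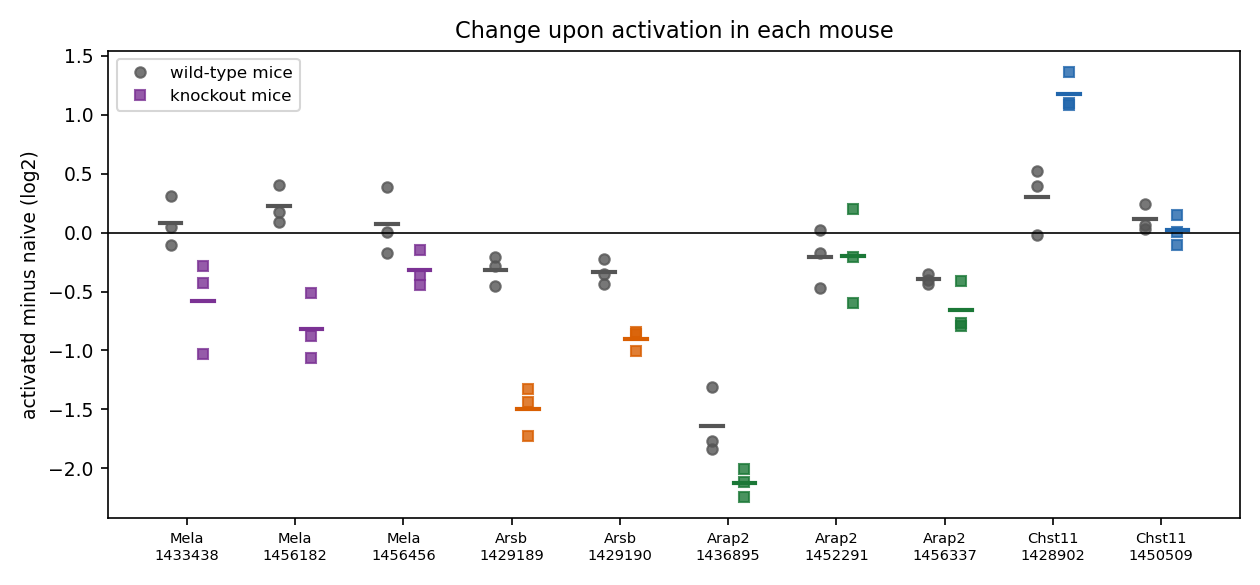
Points give the activated minus naive change on the log2 scale (y axis) in each of the 3 wild-type mice (circles) and 3 knockout mice (squares) for all 10 probe sets, with a bar at each mean. Arap2 1436895 falls in every mouse, Arsb 1429189 falls by 1.33 to 1.73 in knockout mice, and Chst11 1428902 rises by 1.08 to 1.36 in knockout mice.

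The genotypes differed in the activation response of Arsb and Chst11. This test compares the size of the naive and the activated knockout difference, both of which chose the genes, but the choice asked only that both be above 0. Of 45037 probe sets, Arsb 1429189 ranked 11 in the naive difference and Chst11 1428902 ranked 19 in the activated one. The test is thus not independent of the choice. Arsb 1429189 fell further in knockout cells, by 1.18 ± 0.20 (adjusted p = 0.00971), and this passed in all 20 alternatives. Chst11 1428902 rose further in knockout cells, by 0.88 ± 0.16 (adjusted p = 0.0202), and this passed in 15 of 20. It missed without activated wild-type mouse 2 (0.0622) or 3 (0.0581), without naive knockout mouse 5 (0.0664), without activated knockout mouse 4 (0.050) and with quantile normalization (0.73, adjusted p = 0.0684). Of the 10 probe sets 1 was thus higher, 1 lower and 8 did not pass, against 0.648% of all probe sets, 0.411% higher and 0.238% lower. Since the choice of genes bears on this count, nothing further is read from it. The median over the 10 was −0.44, beside 0.01 over all.

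The remaining probe sets of these genes did not pass. Arsb 1429190 gave −0.57 ± 0.19 (adjusted p = 0.315), the same sign as 1429189. Chst11 1450509 gave −0.09 ± 0.12 (adjusted p = 0.888), so the call for Chst11 rests on 1 probe set. For Mela the values were −0.67 ± 0.27, −1.04 ± 0.24 and −0.39 ± 0.21 (adjusted p = 0.449, 0.0735 and 0.622). Mela 1456182 passed with the mouse as a fixed replicate block (0.0177), with an intensity trend and robust variances (0.0396), among probe sets above the median only (0.0428) and with quantile normalization (0.0121). Arap2 1436895 gave −0.48 ± 0.16 (adjusted p = 0.316). Beside these values, markers of cell types differed in the same comparison in both directions. The response was higher in the knockout for 3 of 11 B-cell, 1 of 10 myeloid, 1 of 5 plasma-cell and 1 of 7 NK-cell markers, and lower for 2 of 9 CD8 T-cell markers and 1 of 7 NK-cell markers. Those lower were Cd8a (−0.67 ± 0.13, adjusted p = 0.0236), Lck (−0.93 ± 0.15, adjusted p = 0.00668) and Klra8 (−3.46 ± 0.38, adjusted p = 2.46e-04), the same sign as Arsb. Their part in the result was not tested.

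Around Chst11, the other enzymes that build chondroitin and dermatan sulfate mostly did not differ between the genotypes by the test, and most were dim. The list was chosen with earlier results of these data known, as were those that follow, and it leaves Chst11 out. Of 26 measured genes 1 was higher and 0 lower in naive knockout cells, against 0.504% higher and 0.375% lower over all probe sets, with 3 higher and 0 lower at an unadjusted p under 0.05. That gene was Chsy1, a chondroitin synthase, at 3.95 ± 0.21 (SD, n = 3) in wild-type and 4.69 ± 0.08 in knockout cells (0.74 ± 0.11, adjusted p = 0.00235). In activated cells 1 was higher and 0 lower, against 0.624% and 0.315% of all probe sets, with 4 higher and 0 lower at an unadjusted p under 0.05. The gene that passed was Papss2, which makes the sulfate donor that sulfotransferases such as Chst11 use. Apart from Chsy1, the highest group mean in the list was 2.30, for Papss2 in activated knockout cells. For the dim genes, a lack of difference cannot be told from a lack of signal.

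Papss2 was also among the genes nearest to Chst11 in pattern, as given below. It stood at 1.06 ± 0.19 in naive and 1.22 ± 0.08 in activated wild-type cells, at 1.15 ± 0.08 in naive knockout and at 2.30 ± 0.05 in activated knockout cells. The knockout minus wild-type difference in activated cells was 1.08 ± 0.10 (adjusted p = 2.28e-05). Its activation response differed between genotypes by 0.99 ± 0.13 (adjusted p = 0.00189), the 1 such call of the 26 genes, and it passed in all 20 alternatives. The median of the list was 0.06 in naive and 0.04 in activated cells, beside 0.00 and 0.00 over all probe sets.

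Upon activation 1 of these 26 genes rose and 3 fell in wild-type cells, and 2 rose and 3 fell in knockout cells. Chst15, which adds a second sulfate at position 6 of a 4-sulfated unit, fell in both, by 0.81 ± 0.15 (adjusted p = 0.00101) and 0.87 ± 0.15 (adjusted p = 4.85e-04). Chsy1 rose by 0.52 ± 0.11 in wild-type cells (adjusted p = 0.00202), a call lost with quantile normalization (0.16, adjusted p = 0.256). Papss2 rose by 1.16 ± 0.10 in knockout cells (adjusted p = 2.05e-07). The remaining calls were smaller and did not hold in every fit. In wild-type cells Ust fell by 0.39 ± 0.12 (adjusted p over alternatives 0.00103 to 0.109) and B4galt7 fell by 0.38 ± 0.13 (0.0134 to 0.228). In knockout cells Slc35b3 fell by 0.54 ± 0.17 (0.00897 to 0.144), Dsel fell by 0.27 ± 0.09 (0.0289 to 0.130) and Chst12 rose by 0.35 ± 0.12 (0.00336 to 0.217).

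Around Arsb, none of the 22 other measured sulfatases and enzymes of glycosaminoglycan breakdown differed between genotypes by limma's adjusted p, in naive cells, in activated cells or in the activation response. At an unadjusted p under 0.05 there were 1 higher and 2 lower in naive cells, 3 higher and 2 lower in activated cells, and 2 higher and 0 lower in the response. Upon activation 1 rose and 4 fell in wild-type cells, and 1 rose and 5 fell in knockout cells. Gusb, a lysosomal glucuronidase, rose by 0.61 ± 0.14 in wild-type cells (adjusted p = 0.00431) and by 0.44 ± 0.14 in knockout cells (adjusted p = 0.0310). The knockout call did not hold in every fit that left out 1 array. Sulf2, an endosulfatase of heparan sulfate measured by a probe set marked as antisense, fell by 1.00 ± 0.15 (adjusted p = 1.28e-04) in wild-type and by 0.85 ± 0.15 (adjusted p = 4.89e-04) in knockout cells. Sgsh, a heparan sulfatase, fell by 0.97 ± 0.11 and 0.64 ± 0.11 (adjusted p = 9.15e-06 and 4.86e-04). Ctsa, a lysosomal carboxypeptidase, fell by 0.64 ± 0.12 and 0.79 ± 0.12 (adjusted p = 0.00125 and 1.69e-04). Hexa, a hexosaminidase subunit, fell by 0.49 ± 0.15 and 0.57 ± 0.15 (adjusted p = 0.0253 and 0.00951). The Hexa call was lost in wild-type cells without naive mouse 1 (0.108) or activated mouse 2 (0.120) or with centred arrays (0.0518), and in knockout cells without naive mouse 4 (0.0530).

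Proteins that can carry chondroitin sulfate made a list of 20 genes. In naive knockout cells 0 were higher and 1, Cd74, was lower (−1.30 ± 0.14, adjusted p = 1.32e-04). Cd74 is also 1 of the B-cell markers above. In activated knockout cells 1 was higher and 0 lower: Cd44, an adhesion receptor of antigen-experienced T cells, at 5.84 ± 0.14 against 4.90 ± 0.07 (0.94 ± 0.15, adjusted p = 0.00673). Upon activation 1 rose and 3 fell in wild-type cells, and 2 rose and 2 fell in knockout cells. Cd44 rose by 2.55 ± 0.15 and 2.95 ± 0.15 (adjusted p = 7.70e-09 and 1.61e-09) and Cd74 fell by 3.67 ± 0.14 and 2.07 ± 0.14 (adjusted p = 6.91e-11 and 2.52e-08). Csf1, a growth factor of macrophages, fell by 0.51 ± 0.11 in wild-type cells (adjusted p = 0.00340). Dcn, the small proteoglycan decorin, fell by 0.32 ± 0.09 and 0.29 ± 0.09 (adjusted p = 0.0134 and 0.0241), passing in 18 and 13 of 20 alternatives. The response of Cd74 differed by 1.60 ± 0.20 (adjusted p = 8.36e-04). Srgn, the serglycin core of T-cell granules, was bright in every group, with means from 6.99 to 7.29. Its change upon activation in the knockout, 0.30 ± 0.10 (adjusted p = 0.0417), passed in 10 of 21 alternatives.

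Around Arap2, 42 Arf GTPases, GAPs and exchange factors were measured. In naive cells 0 differed between genotypes by the adjusted p, with 5 higher and 0 lower at an unadjusted p under 0.05. In activated cells 1 was higher and 0 lower, Asap1, another Arf GAP (0.63 ± 0.09, adjusted p = 0.00326), which passed in all 20 alternatives. No activation response differed by the adjusted p, with 4 higher and 0 lower at an unadjusted p under 0.05. Upon activation 3 rose and 9 fell in wild-type cells, and 4 rose and 10 fell in knockout cells. Smap2 fell by 1.30 ± 0.12 and 1.48 ± 0.12 (adjusted p = 4.96e-07 and 1.16e-07), Acap1 fell by 0.89 ± 0.08 and 1.07 ± 0.08 (adjusted p = 1.16e-06 and 1.35e-07), and Git1 rose by 1.10 ± 0.13 and 0.84 ± 0.13 (adjusted p = 1.33e-05 and 1.78e-04). The probe sets of Acap1 and Smap1 are marked as antisense. Iqsec1, an Arf exchange factor, fell by 0.80 ± 0.12 in wild-type cells (adjusted p = 8.03e-05), and Smap1 rose by 0.87 ± 0.19 in knockout cells (adjusted p = 0.00276).

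Around Mela, 35 measured genes silence or restrict retroviral elements or serve in virus entry. In naive knockout cells 1 was higher and 0 lower: Cbx1, a heterochromatin protein (0.67 ± 0.15, adjusted p = 0.0465), in 10 of 20 alternatives. In activated knockout cells 1 was higher and 1 lower. Kdm1a, a histone demethylase, differed by 0.75 ± 0.16 (adjusted p = 0.0401, passing in 12 of 20 alternatives) and Samhd1, a restriction factor, by −0.63 ± 0.12 (adjusted p = 0.0223, passing in 14 of 20). No response differed by the adjusted p, with 4 higher and 5 lower at an unadjusted p under 0.05. Upon activation 19 rose and 1 fell in wild-type cells, and 17 rose and 3 fell in knockout cells, and with quantile normalization 8 and 10 fell. The medians were 0.36 and 0.33, beside −0.04 and −0.03 over all probe sets. Slc7a1, which serves ecotropic mouse retroviruses as receptor, rose by 2.66 ± 0.13 and 2.60 ± 0.13 (adjusted p = 1.09e-09 and 1.36e-09). Uhrf1, which helps copy DNA methylation, rose by 2.57 ± 0.15 and 1.82 ± 0.15 (adjusted p = 4.96e-09 and 1.85e-07). Cbx5 and Cbx1 rose by 2.14 ± 0.21 and 2.09 ± 0.15 in wild-type cells (adjusted p = 1.22e-06 and 3.83e-08), and Hells and Dnmt1 rose by 2.17 ± 0.19 and 1.75 ± 0.11 in knockout cells (adjusted p = 5.03e-07 and 1.06e-08). Genes were named by the size of their change within each genotype, so those named for 1 genotype may also have changed in the other. Mela itself did not rise by the test in either genotype.

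The genes next to Arsb, Arap2 and Chst11 on the chromosome did not differ between genotypes by the test, but most were near the floor. Apart from Txnrd1 and D10Wsu102e, the highest group mean of a neighbour was 1.51, for Rell1 in naive wild-type cells. For such dim genes, a lack of difference cannot be told from a lack of signal. Of 18 measured neighbours, 3 on each side, 0 differed between genotypes by limma's adjusted p in naive cells, in activated cells or in the activation response. At an unadjusted p under 0.05 these counts were 1, 2 and 1. Their knockout differences ran from −0.27 to 0.25 in naive and from −0.19 to 0.49 in activated cells. Upon activation 3 rose and 1 fell in wild-type cells and 3 rose in knockout cells. Beside Chst11, Txnrd1, a thioredoxin reductase, rose by 1.81 ± 0.12 and 2.10 ± 0.12 and Eid3 by 0.46 ± 0.11 and 0.60 ± 0.11, in wild-type and knockout cells. Neither differed between genotypes in activated cells (0.22 ± 0.12, adjusted p = 0.635, and 0.05 ± 0.11, adjusted p = 0.973).

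Genes of like pattern were found by the root mean square difference of the centred log2 values over the 12 arrays, where a smaller value is a closer match, among 20961 other genes. Each gene was represented by its brightest probe set. For Mela, whose own values spread by 2.28 about their mean, no gene came close. The nearest were Mid1 at 1.22, measured by a probe set marked as antisense, then Eomes at 1.43, Arsb at 1.57, Itm2a at 1.65 and Lyst at 1.70. Eomes, a T-box factor of memory and effector CD8 cells, averaged 2.11 in naive wild-type, 4.74 in naive knockout, 2.86 in activated wild-type and 3.87 in activated knockout cells.

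Arsb had closer matches, against its own spread of 0.95. They were Cxcr3 at 0.31, F2r at 0.33, Lyst at 0.33, 5830411N06Rik at 0.36 and Mef2a at 0.39. Cxcr3, a chemokine receptor of memory and effector T cells, averaged 3.57 in naive wild-type, 5.21 in naive knockout, 2.94 in activated wild-type and 3.43 in activated knockout cells. For Arap2, with a spread of 1.05, the nearest were D18Ertd232e at 0.29, Ppm1h at 0.30, Btbd11 at 0.31, Rtp4 at 0.31 and 2810043O03Rik at 0.32. Their knockout minus wild-type differences ran from 0.64 to 1.17 in naive cells, beside 1.13 for Arap2. In activated cells they ran from 0.11 to 0.18, beside 0.64. Ppm1h averaged 4.79 in naive wild-type, 5.43 in naive knockout, 3.21 in activated wild-type and 3.34 in activated knockout cells.

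For Chst11, with a spread of 0.68, the nearest were Bex1 and Papss2 at 0.26, and Pde8a, Prf1 and Spp1 at 0.30. Their knockout minus wild-type differences ran from 0.96 to 1.43 in activated cells, beside 1.45 for Chst11. In naive cells they ran from −0.01 to 0.32, beside 0.57. Prf1, the perforin of cytotoxic granules, averaged 1.57 in naive wild-type, 1.89 in naive knockout, 1.67 in activated wild-type and 2.79 in activated knockout cells. Among the 4 genes themselves Arsb and Arap2 were nearest at 0.64, and Mela and Arap2 farthest at 2.00. Arsb and Chst11 stood at 1.03, Arap2 and Chst11 at 1.37, and Mela and Chst11 at 1.88. These distances describe 12 arrays that share the same 6 mice, and they carry no test.

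**Figure D5:**
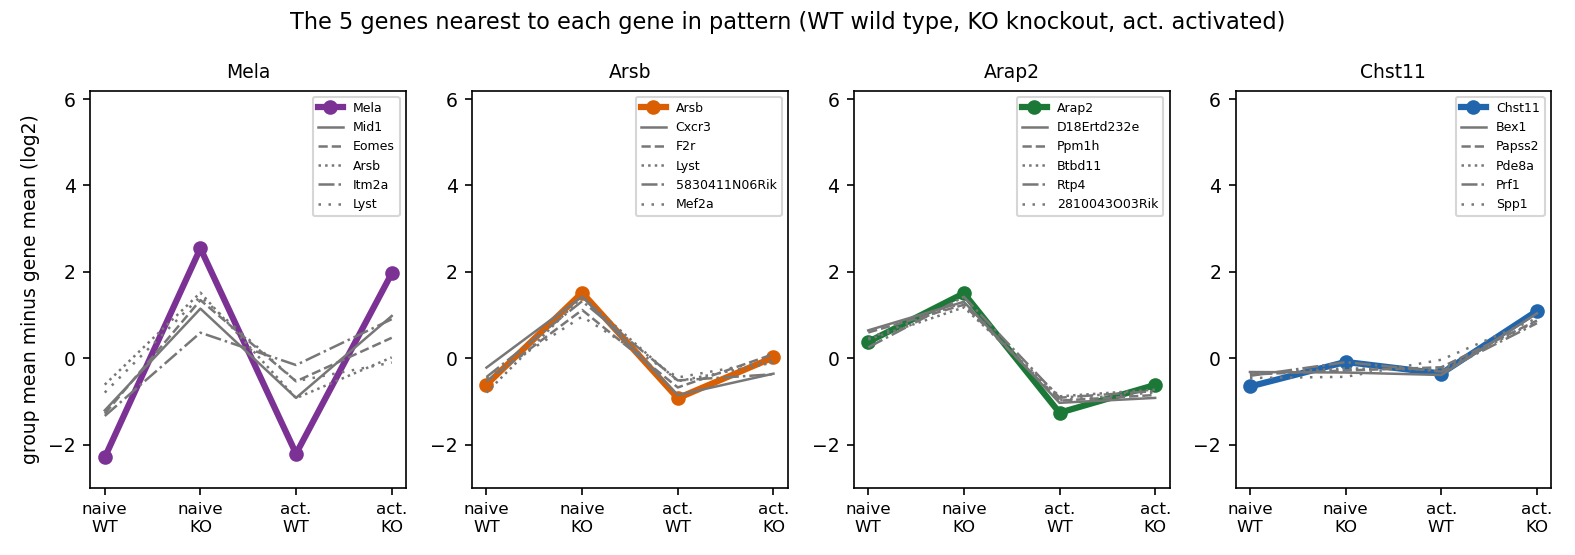
Each panel plots group means minus the gene's mean on the log2 scale (y axis) over the 4 groups for 1 gene (coloured) and the 5 genes nearest to it in pattern (grey). The lines of Chst11 and its nearest genes turn up in activated knockout cells, and those of Arap2 and its nearest genes fall from naive to activated cells in both genotypes.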

How the data were processed

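From 12 samples about 200 ng of RNA each was amplified (Nugen Ovation Pico WTA) and measured on Affymetrix mouse arrays of perfect-match probes, per the labels. The deposited log2 values were made by the authors with RMA, per the submitters' processing notes, which give no version, and were used unchanged. The series table and the authors' workbook differed by at most 5.0e-09. The 2 further sheets of that workbook were not used. Of 45141 probe sets 104 controls were left out, and no filter on low values was applied. Detection calls were not used. Precision is set by the number of arrays.

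Groups were taken from the sample titles. limma 3.58.1 in R 4.3.3 fitted 1 mean per group over 12 arrays with eBayes, for 5 two-sided comparisons: activation in each genotype, knockout against wild type within naive and within activated cells, and the genotype difference in response. P-values were adjusted by Benjamini-Hochberg over 45037 probe sets, with a threshold of 0.05. A gene is led by its probe set of highest mean. Symbols follow the RefSeq table of GRCm38.p6 for 18394 genes. The members and gene lists were chosen with earlier results of these data known. Named genes are the up to 4 passing genes of largest change per list and comparison (all where 5 or fewer passed), the 3 neighbours on each side and the 5 nearest patterns. A gene named for 1 comparison may thus also have passed in another. Marker levels were summed as linear values, 2 to the power of the log2 value.

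Samples pair by animal, since every mouse gave both states. Across probe sets, the correlation (Pearson's r) of paired deviations from group means was 0.04, −0.08, 0.05, 0.12, −0.04 and 0.07 for mice 1 to 6. The mouse was tried as a random and a fixed replicate block. Other alternatives were leaving out each array, variance settings, a filter on dim probe sets, 1 probe set per gene, 2 normalizations, fits of 6 arrays and, chosen after seeing the data, mice 3 and 6 as a covariate. Tested on simulated data with 45037 probe sets, the fit recovered 97% of 100 changes of 1 log2 unit in each activation comparison and 78% in their difference. Python 3.11.15, pandas 2.3.3, numpy 2.4.6 and matplotlib 3.10.9 made tables and plots.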

Additional observations from a re-analysis of the deposited data

Results flagged for a closer look

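The activation response differed between knockout and wild-type mice, by the test of the difference itself, for 4 genes described above. It was lower in the knockout for Arsb (1429189), by −1.18 on the log2 scale, since Arsb fell by 1.50 in knockout and changed by −0.31 in wild-type cells. It was higher in the knockout for Chst11 (1428902), by 0.88. For Arsb and Chst11 the test is not independent of how the genes were chosen. Papss2, which makes the sulfate donor for Chst11, differed by 0.99. Cd74 differed by 1.60, and its naive level was 6.86 ± 0.08 (SD, n = 3) in wild-type against 5.56 ± 0.22 in knockout cells. Cd74 is a B-cell marker as well as a carrier of chondroitin sulfate, and the part of other cells in its values was not tested.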

How the results depend on the processing

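The main fit passed 10793 probe sets for activation in wild-type cells, 11065 in knockout cells, 292 for their difference, and 396 and 423 for knockout against wild type in naive and activated cells. With 1 probe set per gene, which tests fewer features, the counts were 5612, 5595, 182, 228 and 277, and with only the 6 arrays compared the last was 223. Quantile normalization gave 10253, 10678, 310, 543 and 388. Leaving out each array in turn gave 8737 to 11527, 9609 to 10981, 202 to 349, 260 to 510 and 222 to 496. The naive knockout count was 263 without naive wild-type mouse 1 and 260 without naive knockout mouse 5, and the activated one 226 and 222 without activated wild-type mouse 2 and 3. As a fixed replicate block the mouse gave 10655, 10974 and 273 calls, and as a random block 11073, 11310, 314, 399 and 423. Beyond the calls of Arsb, Mela and Dcn that it moved (Dcn fell by 0.29 in knockout cells, adjusted p = 0.0241, and 0.0526 with the fixed block), the block changed no other call of a named gene. By choice of probe set the genotype difference in the response of Chst11 was lost, from 0.88 to −0.093 ± 0.12 with the dim 1450509 (limma adjusted p = 0.888). It was 0.39 with the mean of both, and the cause was not tested. Dim probe sets near the floor limit what can be seen for Chst11 and Arsb in wild-type cells.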
